A study of Homo sapiens with 9 samples.

Results

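Expression of 10 genes that encode subunits of cohesin and condensin was measured in Raji, an established human B-cell line from a Burkitt lymphoma. The genes were chosen by name: SMC1A, SMC3, RAD21, STAG1 and STAG2 for cohesin, and SMC2, SMC4, NCAPD2, NCAPG and NCAPH for condensin. All 10 were among the 15436 genes listed in the expression table. Cells were treated with hydroxyurea (HU), with thymidine and nocodazole (Thy-Noc), or with the solvent DMSO as the control, and 3 RNA libraries were sequenced per group. Hydroxyurea blocks ribonucleotide reductase and so stalls replication forks. Excess thymidine also stops DNA synthesis, and nocodazole depolymerizes microtubules and holds cells in mitosis. The series was made to ask how DNA replication stress changes the transcriptome of these cells. The sources used here give neither the doses nor the times of treatment. The labels give no genetic change in any group, so the cells of all groups are unmodified Raji as far as the labels say.

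Cohesin and condensin are ring-shaped complexes built on pairs of SMC proteins, ATPases with long coiled coils. SMC1A and SMC3 form the cohesin pair, RAD21 is the kleisin that closes the ring and is cut by separase at anaphase, and STAG1 or STAG2 binds RAD21 as alternative subunits. Cohesin holds sister chromatids together from S phase to mitosis and folds interphase chromatin into loops. SMC2 and SMC4 form the condensin pair, which the kleisin NCAPH and the HEAT-repeat proteins NCAPD2 and NCAPG complete as condensin I, the complex that compacts chromosomes after nuclear envelope breakdown. Many condensin and mitotic genes are transcribed periodically, with most of their mRNA made in late S phase and G2.

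The promoter sequences of the genes below were taken from RefSeq (GRCh38.p14) and are printed for NCAPH, STAG1 and SMC3, whose HU libraries all lay below the DMSO libraries, and for NCAPG, whose groups overlapped. Each is the 250 bases before the transcription start annotated in RefSeq, written 5′ to 3′ on the strand of the gene. Capitals mark matches to 3 kinds of motif known from cell-cycle genes, searched on both strands: the E2F motif (TTTCCCGC or TTTGGCGC), the CHR (TTTGAA or TTCGAA) and the CCAAT box (CCAAT). The NCAPH window is chr2:96335516-96335765 on the plus strand, that of STAG1 is chr3:136752379-136752628 on the minus strand, that of SMC3 is chr10:110567445-110567694 on the plus strand and that of NCAPG is chr4:17810729-17810978 on the plus strand.
NCAPH: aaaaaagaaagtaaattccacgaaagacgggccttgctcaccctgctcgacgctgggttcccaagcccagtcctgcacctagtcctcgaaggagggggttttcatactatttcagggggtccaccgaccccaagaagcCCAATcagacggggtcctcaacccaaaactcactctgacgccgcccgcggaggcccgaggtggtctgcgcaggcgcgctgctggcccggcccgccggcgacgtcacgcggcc
STAG1: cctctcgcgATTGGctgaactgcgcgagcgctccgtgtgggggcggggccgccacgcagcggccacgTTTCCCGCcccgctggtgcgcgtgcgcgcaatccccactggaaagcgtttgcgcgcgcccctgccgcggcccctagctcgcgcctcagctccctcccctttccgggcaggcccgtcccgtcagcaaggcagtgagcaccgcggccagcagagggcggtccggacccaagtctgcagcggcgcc
SMC3: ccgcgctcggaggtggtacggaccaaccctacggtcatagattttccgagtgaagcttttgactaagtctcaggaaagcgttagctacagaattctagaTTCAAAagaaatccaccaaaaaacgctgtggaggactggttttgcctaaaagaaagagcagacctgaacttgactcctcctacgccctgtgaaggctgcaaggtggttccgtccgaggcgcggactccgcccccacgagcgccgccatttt
NCAPG: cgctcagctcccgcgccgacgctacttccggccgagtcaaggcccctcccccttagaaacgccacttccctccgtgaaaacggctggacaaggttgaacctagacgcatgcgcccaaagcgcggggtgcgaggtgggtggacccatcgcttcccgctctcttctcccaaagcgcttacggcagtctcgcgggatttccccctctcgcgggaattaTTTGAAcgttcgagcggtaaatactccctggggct
The NCAPH window holds 1 CCAAT box, with its first base at position −112 from the start. The STAG1 window holds the E2F motif TTTCCCGC at position −183 and a CCAAT box on the other strand, read as ATTGG, at position −241. The SMC3 window holds a CHR on the other strand, read as TTCAAA, at position −151, and the NCAPG window holds the CHR TTTGAA at position −35. Over all 35116 promoter windows of the table, an E2F motif of either spelling is in 1.93%, a CHR of either spelling in 14.3% and a CCAAT box in 32.0%. The search covered 14 windows of 9 subunit genes, and RAD21 is named only. Genes whose HU and DMSO libraries overlapped also held matches: an E2F motif at position −20 in 1 of 2 SMC1A windows and at −51 in 1 of 3 STAG2 windows, a CHR at −75 in 1 of 2 SMC4 windows and at −145 in NCAPD2, and CCAAT boxes in NCAPD2 and STAG2. SMC2 held none of these motifs. Positions count from the RefSeq start, which differs from that of GENCODE release 29. The windows of NCAPG, STAG1 and SMC3 run past the GENCODE start into the gene, and the CHR of NCAPG lies in that part. The NCAPH window ends before the GENCODE start. The bases just after the RefSeq start lay in a GENCODE transcript for 13 of the 14 windows, and not for NCAPH. A match describes the letters of the window and was not tested as a binding site.

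The 9 libraries held between 74940755 and 110485145 expected counts, and a tested gene had a median count of 1438. Of the listed genes, 11346 passed the filter of a CPM (counts scaled to a common library size) of at least 1 in at least 3 libraries, and all 10 subunit genes were among them. As to the B-cell label, 6 of 6 B-cell markers were listed, and their summed CPM was 1060 to 1960 in HU, 1370 to 2010 in Thy-Noc and 1400 to 1910 in DMSO. None of 5 T-cell markers was listed. Of 5 myeloid markers, LYZ and ITGAM were listed, with a summed CPM of 1.21 to 3.25 in HU, 0.765 to 0.973 in Thy-Noc and 0.84 to 1.06 in DMSO. The labels do not say that replicates came from separate cultures, so p-values reflect only how these samples spread, and that spread may be technical. In bulk RNA, fewer cells that carry a transcript and less of it per cell cannot be told apart. Unsteady genes, with replicates at least 10-fold apart in some group after 0.5 CPM was added, made up 16.2% of all tested genes. A value may cover only part of the reads of its gene, which was not tested.

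In HU against DMSO, 2 of the 10 subunit genes fell and none rose: NCAPH, the condensin I kleisin, and RAD21, the cohesin kleisin, by the quasi-likelihood test of edgeR, with p-values adjusted by Benjamini-Hochberg over all tested genes. Of all tested genes, 1.56% fell and 2.0% rose by the same rule. For 4 of the 10 (NCAPH, RAD21, SMC3 and STAG1), every HU library was below every DMSO library, against 15.3% of all tested genes, and for no subunit gene was every HU library above, against 15.5%. Without adjustment 4 of the 10 had p under 0.05, against 21.2% of all tested genes, and DESeq2 called 4 of the 10, against 18.8%. The log2 fold change was below 0 for 8 of the 10, against 48.7% of all tested genes. Its median was −0.47 over the 10 genes and 0.02 over all tested genes.

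NCAPH (ENSG00000121152, chr2:96335787-96373845, plus strand, GRCh38) had 14.1, 13.1 and 15.0 CPM in HU, 26.1, 28.4 and 26.7 CPM in Thy-Noc, and 23.4, 28.99 and 27.3 CPM in DMSO. All 3 HU libraries lay below 16 CPM and all 6 others above 23 CPM, so HU overlapped neither group. Means were 14.0 ± 0.96 CPM in HU and 26.5 ± 2.87 CPM in DMSO (SD, n = 3 each). The log2 fold change was −0.92 ± 0.13 (SE; 95% interval −1.23 to −0.60; adjusted p = 0.0224 by edgeR), and the level fell by 47.1%. No annotated gene overlaps NCAPH. The call held in the 4 fits without HU replicate 2 or without any 1 Thy-Noc library (adjusted p 0.0372 to 0.0471). It was lost in the 5 fits without HU replicate 1, HU replicate 3, or DMSO replicate 1, 2 or 3, where adjusted p was 0.0603 to 0.0866 and the log2 fold change −1.002 to −0.84, and in a fit of only the HU and DMSO libraries (adjusted p = 0.0684 by edgeR).

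RAD21 (ENSG00000164754) had 613, 658 and 688 CPM in HU, 969, 861 and 897 CPM in Thy-Noc, and 820.5, 874 and 890.3 CPM in DMSO. The HU libraries were the 3 lowest of the 9, while the other groups overlapped each other. Means were 653 ± 38.0 CPM in HU and 862 ± 36.5 CPM in DMSO (SD, n = 3 each). The log2 fold change was −0.40 ± 0.08 (SE; 95% interval −0.59 to −0.21; adjusted p = 0.0490 by edgeR), and the level fell by 24.2%. With any 1 of the 9 libraries left out the adjusted p passed 0.05 (0.0598 to 0.155), with log2 fold changes of −0.44 to −0.35. It did so too without the filter (0.0864), in a fit of only the HU and DMSO libraries (0.0838), without an intensity trend (0.0924) and with total-count scaling (0.116). RAD21 shares bases with UTP23 and RAD21-AS1 on the opposite strand, and since strand use in the counting is not given, their reads cannot be told apart.

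SMC3 and STAG1 were below DMSO in every HU library without passing the adjusted test. SMC3 (ENSG00000108055, chr10:110567691-110604636, plus strand) had 64.2, 65.6 and 73.8 CPM in HU, 82.1, 99.6 and 96.8 CPM in Thy-Noc, and 90.3, 108.5 and 92.8 CPM in DMSO. Its log2 fold change in HU against DMSO was −0.52 ± 0.12 (SE; 95% interval −0.81 to −0.23; adjusted p = 0.0666 by edgeR). No annotated gene overlaps SMC3, and its HU libraries lay below all 6 others. STAG1 (ENSG00000118007, chr3:136336233-136752403, minus strand) had 66.9, 92.0 and 52.2 CPM in HU, 150, 124 and 141 CPM in Thy-Noc, and 124, 103 and 116.5 CPM in DMSO. HU replicate 2 was the highest HU library for STAG1, 1.76-fold above the lowest. The log2 fold change of STAG1 was −0.70 ± 0.21 (SE; 95% interval −1.19 to −0.22; adjusted p = 0.114 by edgeR), and without HU replicate 2 it was −0.94 with adjusted p = 0.0466. DESeq2 called both genes, with adjusted p of 0.000451 for SMC3 and 0.0108 for STAG1. The gene body of STAG1 shares bases with PCCB on the opposite strand.

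STAG2 (ENSG00000101972, chrX:123960212-124422664, plus strand), the other of the alternative subunits, had 145, 304 and 185 CPM in HU, 180, 204 and 194 CPM in Thy-Noc, and 143, 127 and 175 CPM in DMSO. Its HU libraries overlapped both other groups, and HU replicate 2 was 2.09-fold above HU replicate 1. The log2 fold change in HU against DMSO was 0.51 ± 0.27 (SE; 95% interval −0.12 to 1.14; adjusted p = 0.329 by edgeR). SMC1A (ENSG00000072501, chrX:53374149-53422728, minus strand), the partner of SMC3 in the ring, had 235, 362 and 160 CPM in HU, 400, 403 and 339.5 CPM in Thy-Noc, and 218.5, 425 and 389 CPM in DMSO. DMSO replicate 1 lay among the HU libraries, and the log2 fold change was −0.45 ± 0.34 (SE; 95% interval −1.25 to 0.36; adjusted p = 0.527 by edgeR). HU replicate 2 held the highest HU value of SMC1A, STAG1, STAG2 and NCAPD2 and the lowest of NCAPG and NCAPH. STAG2 shares bases with SH2D1A on the same strand and SMC1A with RIBC1 on the opposite strand.

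**Figure D1:**
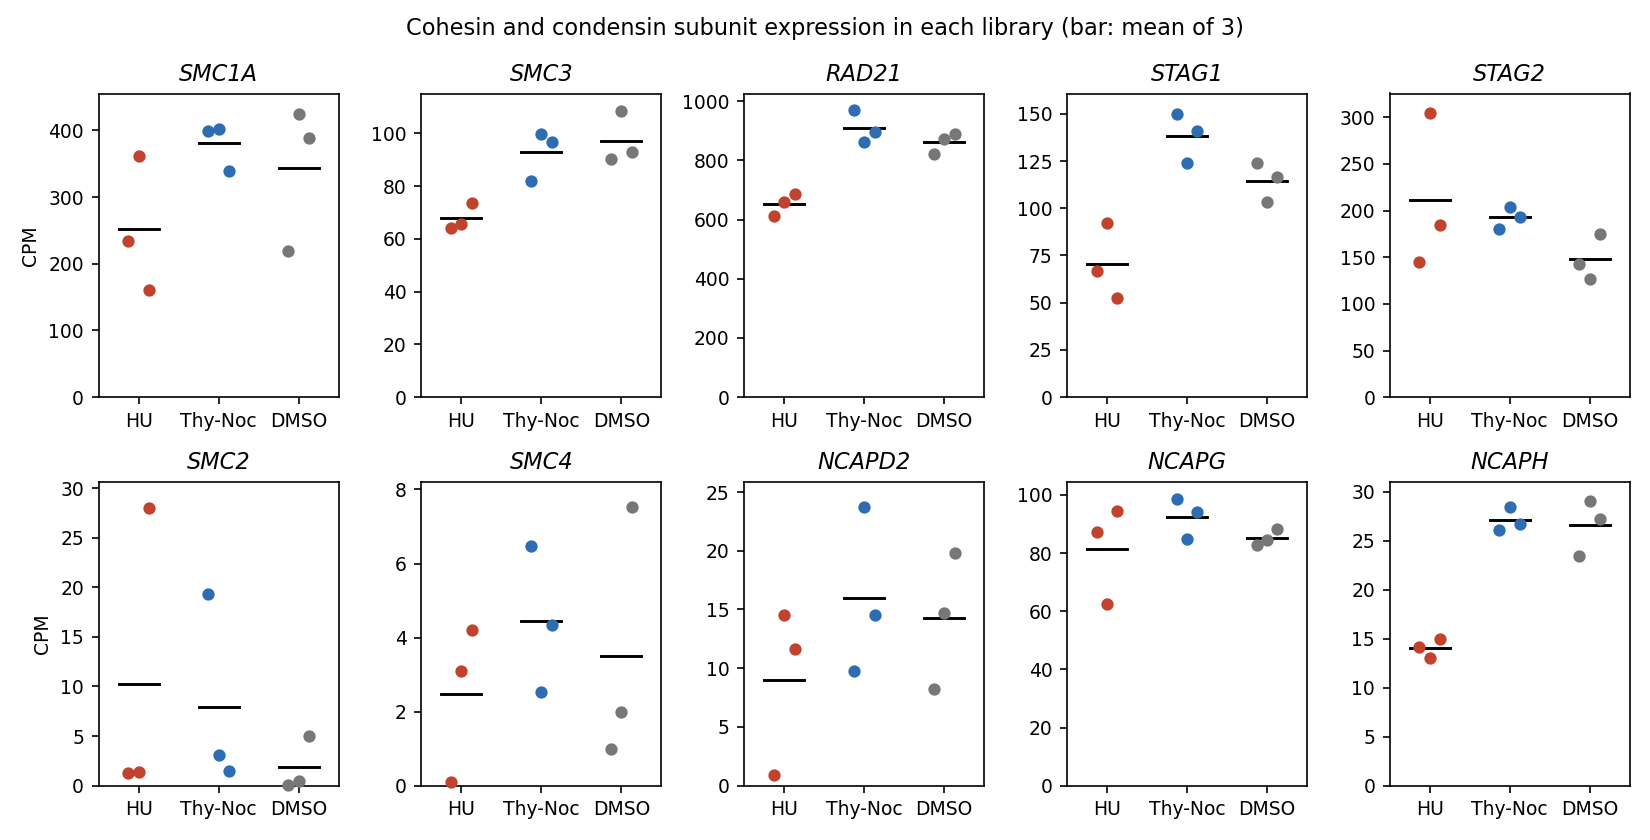
CPM of each of the 10 subunit genes in each library (points) with the mean of 3 (bar), for HU, Thy-Noc and DMSO, each panel with its own axis from 0. For NCAPH the HU points sit between 13.1 and 15.0 CPM and the other 6 between 23.4 and 28.99 CPM.

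The condensin subunits other than NCAPH did not pass the test in HU against DMSO. NCAPG (ENSG00000109805, chr4:17810902-17844862, plus strand), a HEAT-repeat subunit, had 87.3, 62.5 and 94.6 CPM in HU, 98.6, 84.7 and 94.2 CPM in Thy-Noc, and 82.8, 84.6 and 88.5 CPM in DMSO. The groups overlapped, and the interval of its log2 fold change in HU against DMSO, −0.44 to 0.31 around −0.07 (adjusted p = 0.889 by edgeR), leaves out a change of the size seen for NCAPH. Without HU replicate 2 the value was 0.10. SMC2, SMC4 and NCAPD2 had low and variable values. SMC2 (ENSG00000136824, chr9:104094260-104141417, plus strand) had 1.32, 1.41 and 28.0 CPM in HU, 19.3, 3.08 and 1.52 CPM in Thy-Noc, and 0.0761, 0.504 and 5.04 CPM in DMSO. One library of each group stood far above the other two for SMC2, and the 3 groups overlapped. Its expected counts ran from 6 in DMSO replicate 1 to 2941 in HU replicate 3. SMC4 (ENSG00000113810, chr3:160399274-160434962, plus strand), its partner, had 0.101, 3.10 and 4.21 CPM in HU, 6.46, 2.53 and 4.35 CPM in Thy-Noc, and 0.989, 1.98 and 7.52 CPM in DMSO. HU replicate 1, with 8 counts, was the lowest of the 9 for SMC4, and the groups overlapped. NCAPD2 (ENSG00000010292, chr12:6493356-6531955, plus strand) had 0.898, 14.5 and 11.6 CPM in HU, 9.77, 23.7 and 14.5 CPM in Thy-Noc, and 8.24, 14.7 and 19.8 CPM in DMSO, with HU replicate 1 alone below 1 CPM. In HU against DMSO their log2 fold changes were 2.46 ± 1.87 for SMC2, −0.50 ± 1.19 for SMC4 and −0.66 ± 0.88 for NCAPD2 (SE), with adjusted p from 0.525 to 0.888 by edgeR. Leaving out 1 library turned the direction of SMC2, to −0.45 without HU replicate 3, and of SMC4, to 0.74 without DMSO replicate 3 and 0.07 without HU replicate 1. On the opposite strand SMC4 shares bases with IFT80 and TRIM59, NCAPD2 with MRPL51 and NCAPG with LCORL, and NCAPG has 2 annotated pseudogenes by name and SMC4 and NCAPD2 1 each.

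**Figure D2:**
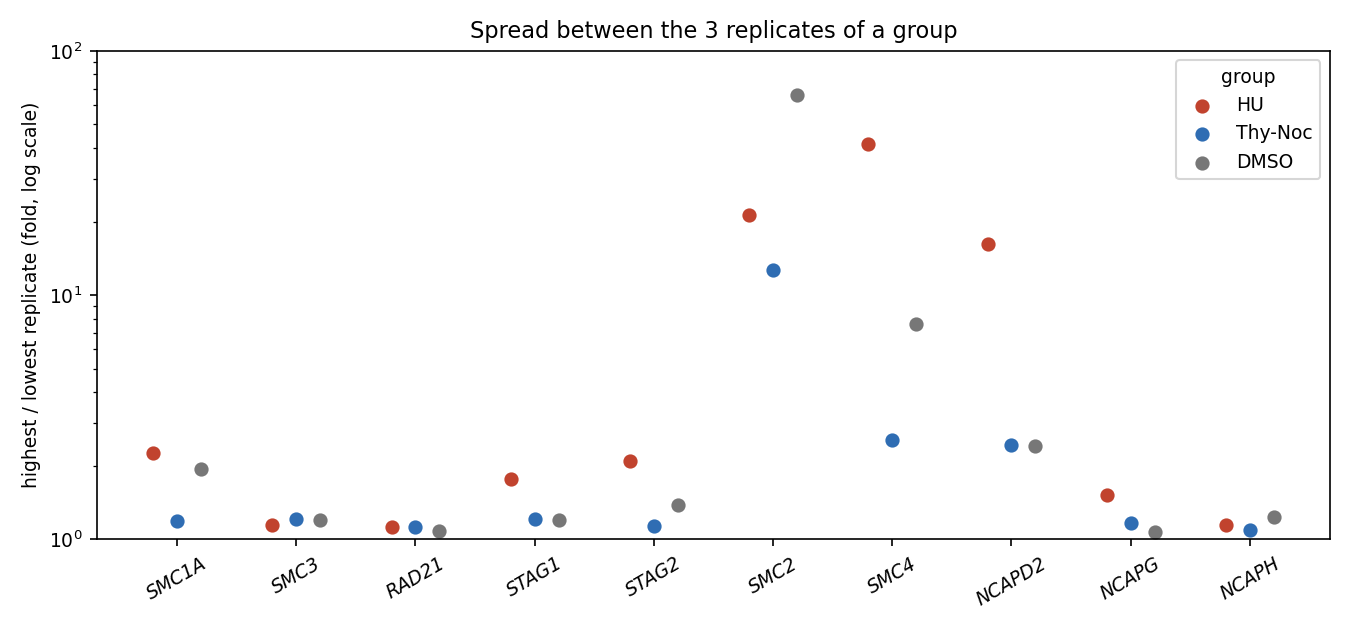
Highest over lowest CPM within each group of 3 libraries (log scale) for the 10 subunit genes. SMC2 reaches 66.2-fold in DMSO and SMC4 41.5-fold in HU, while RAD21 stays at or below 1.13-fold in every group.

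Within groups the members differed widely in steadiness. The highest library exceeded the lowest by 21.3-fold in HU, 12.7-fold in Thy-Noc and 66.2-fold in DMSO for SMC2. It did so by 41.5-fold in HU, 2.55-fold in Thy-Noc and 7.6-fold in DMSO for SMC4. For RAD21 the same range was 1.12-fold in HU, 1.13-fold in Thy-Noc and 1.085-fold in DMSO, and for NCAPH it was 1.15-fold in HU, 1.09-fold in Thy-Noc and 1.24-fold in DMSO. Counting at least 10-fold after 0.5 CPM was added, SMC2 and NCAPD2 were unsteady, 2 of 10, against 16.2% of all tested genes. SMC4 was not, because its low values lie near the added 0.5 CPM.

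In Thy-Noc against DMSO, no subunit gene passed edgeR's adjusted test, none had an unadjusted p under 0.05, and DESeq2 and limma also called 0 of 10. A log2 fold change below 0 was found for 1 of the 10, SMC3, against 48.9% of all tested genes. Of all tested genes, 0.0353% passed the adjusted test and 4.49% had p under 0.05 without adjustment, while DESeq2 called 1.58%. STAG1 (narrowly, with the lowest Thy-Noc and the highest DMSO library both at 124 CPM) and STAG2 were higher in every Thy-Noc library than in every DMSO library, as were 5.18% of all tested genes, and no subunit gene was lower in this way, against 4.79%. Mean STAG1 was 138 ± 13.1 CPM in Thy-Noc and 115 ± 10.4 CPM in DMSO (SD, n = 3 each), which gave a log2 fold change of 0.27 (95% interval −0.21 to 0.75). Mean STAG2 was 193 ± 11.8 CPM in Thy-Noc and 148 ± 24.6 CPM in DMSO (SD, n = 3 each), which gave a log2 fold change of 0.38 (95% interval −0.25 to 1.01). For NCAPH the log2 fold change was 0.03 (95% interval −0.28 to 0.34) and for RAD21 it was 0.08 (95% interval −0.12 to 0.27), both intervals leaving out a fall of the size seen in HU. Adjusted p was 0.9998 for each of the 10 genes by edgeR. The comparison shares its DMSO libraries with that of HU.

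**Figure D3:**
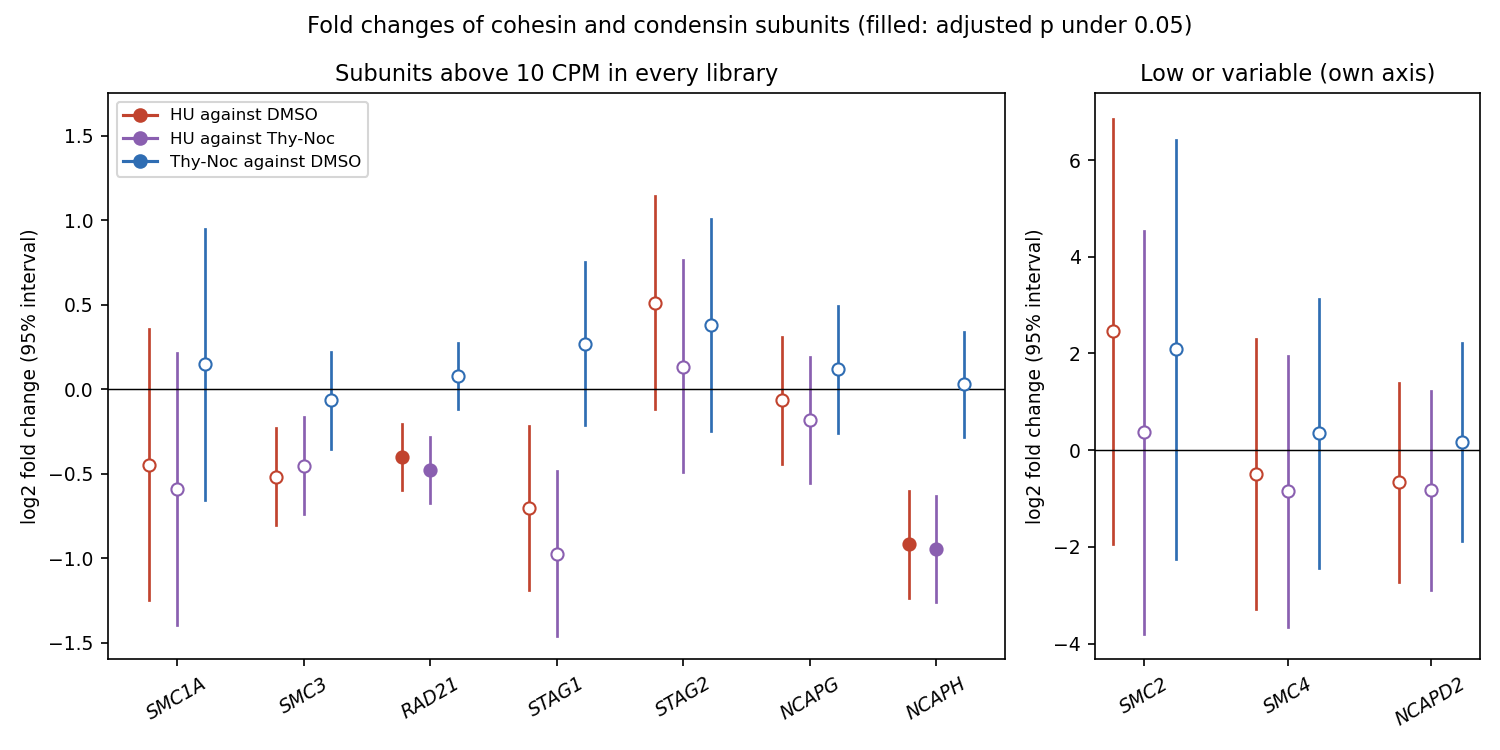
Log2 fold changes (points) with 95% intervals (lines) of the 10 subunit genes in HU against DMSO, HU against Thy-Noc and Thy-Noc against DMSO, filled where adjusted p was under 0.05 by edgeR. NCAPH and RAD21 are filled in both HU comparisons, and the right panel has a wider axis for SMC2, SMC4 and NCAPD2.

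In HU against Thy-Noc, the same 2 subunit genes fell, NCAPH and RAD21, and none rose, while 1.06% of all tested genes fell and 0.696% rose by edgeR. Log2 fold changes were below 0 for 8 of the 10, against 49.3%. Unadjusted p was under 0.05 for 4 of the 10, against 19.4% of all tested genes, and DESeq2 called 4, against 16.1%. NCAPH averaged 14.0 ± 0.96 CPM in HU and 27.1 ± 1.23 CPM in Thy-Noc (SD, n = 3 each), and the log2 fold change was −0.95 ± 0.13 (SE; adjusted p = 0.0315 by edgeR). RAD21 averaged 653 ± 38.0 CPM in HU and 909 ± 54.7 CPM in Thy-Noc (SD, n = 3 each), and the log2 fold change was −0.48 ± 0.08 (SE; adjusted p = 0.0425 by edgeR). In a fit of only the HU and Thy-Noc libraries adjusted p was 0.110 for NCAPH and 0.147 for RAD21, without the filter 0.0536 and 0.0791, and with total-count scaling 0.0529 and 0.101, in the same order of genes. Without an intensity trend the call on RAD21 was lost (0.0778). Both calls were lost with any 1 library left out (adjusted p 0.0525 to 0.117 for NCAPH and 0.0733 to 0.132 for RAD21), with the log2 fold change at −0.99 to −0.89 for NCAPH and −0.51 to −0.42 for RAD21. STAG1 averaged 70.4 ± 20.1 CPM in HU and 138 ± 13.1 CPM in Thy-Noc (SD, n = 3 each), and the log2 fold change was −0.97 ± 0.21 (SE; adjusted p = 0.0653 by edgeR), and −1.21 with adjusted p = 0.0372 without HU replicate 2. SMC3 averaged 67.9 ± 5.15 CPM in HU and 92.9 ± 9.40 CPM in Thy-Noc (SD, n = 3 each), and the log2 fold change was −0.45 ± 0.12 (SE; adjusted p = 0.113 by edgeR). By DESeq2 adjusted p was 0.000223 for STAG1 and 0.00337 for SMC3. By limma with a pseudocount of 0.5 CPM it was 0.0489 for STAG1 and 0.0945 for SMC3. Limma called 3 subunit genes of 326 in all at that pseudocount, 3 of 346 at 1 CPM and 2 of 311 at 0.1 CPM. For NCAPH, RAD21, STAG1 and SMC3 the HU and Thy-Noc libraries did not overlap, with HU lower, as for 12.0% of all tested genes. No subunit gene was higher in this way, against 12.9%.

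The balance of the alternative cohesin subunits was read within each library as the ratio of STAG1 to STAG2 CPM, a measure chosen after the values were seen. It was 0.46, 0.302 and 0.283 in HU, 0.83, 0.608 and 0.727 in Thy-Noc, and 0.869, 0.814 and 0.665 in DMSO. The HU values lay below all 6 others, while Thy-Noc and DMSO overlapped. The difference in the mean log2 ratio was −1.19 in HU relative to DMSO and −1.07 in HU relative to Thy-Noc, given as a description. An exact permutation of the group labels gave a two-sided p of 0.1 for each. That is the lowest that 3 against 3 libraries can give, and any full separation gives it. The permutation gave 0.6 for Thy-Noc against DMSO. Since the ratio was chosen with its values known, these p-values lend it no support. How many other gene pairs separate in this way was not examined. Because STAG1 and STAG2 differ in length, the ratio compares groups and not the amounts of the 2 proteins' mRNAs.

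**Figure D4:**
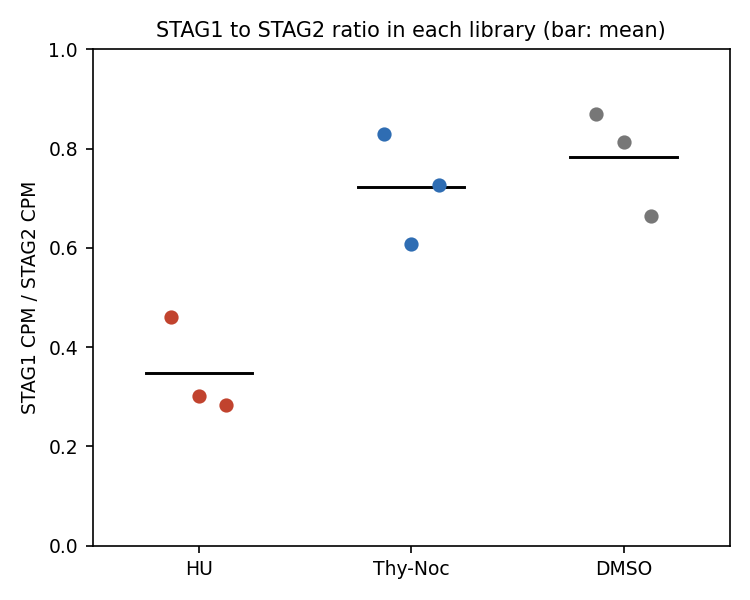
Ratio of STAG1 CPM to STAG2 CPM in each library (points) with the mean of 3 (bar) in HU, Thy-Noc and DMSO, on an axis from 0. The HU points sit between 0.283 and 0.46 and the others between 0.608 and 0.869.

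Levels between genes were set side by side per kilobase of annotated exon. RAD21 was the highest in every group, with means of 105.5 CPM per kb in HU, 147 in Thy-Noc and 139 in DMSO, above the next gene in every library. In DMSO the order after RAD21 was SMC1A (32.8 CPM per kb), SMC3 (22.7), STAG2 (18.1) and NCAPG (17.3), where each neighbour's range overlapped the next, and then STAG1 (14.6) and NCAPH (8.10), each apart from its neighbours. NCAPD2 (2.19), SMC4 (0.413) and SMC2 (0.289) were last in DMSO. The DMSO ranges of SMC4 (0.117 to 0.889 CPM per kb) and SMC2 (0.0118 to 0.779) were wide and overlapped, so their order is open. A value may cover only part of the reads of its gene, so a low one need not mean little transcript, which was not tested. In HU, STAG1 (8.97 CPM per kb) and NCAPH (4.28) held the same ranks as in DMSO, with the range of NCAPH overlapping that of SMC2, and in Thy-Noc STAG1 was at 17.6 and NCAPH at 8.26 CPM per kb.

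Other genes of the pathway were read from a list of 33, of which 30 were listed and 29 tested, with SGO2 below the filter at 0.253 to 0.803 CPM. In HU against DMSO, 2 of 29 fell and none rose by edgeR, against 1.56% and 2.0% of all tested genes, and DESeq2 called 9 of 29, against 18.8%. The 2 that fell were NSMCE4A, a subunit of the SMC5/6 complex, and TOP2A, the topoisomerase that decatenates sister chromatids with condensin. The median log2 fold change of the 29 was −0.11. NSMCE4A had 87.8, 101 and 84.0 CPM in HU, 151, 159.5 and 154 CPM in Thy-Noc, and 147, 155 and 157 CPM in DMSO. The HU libraries lay below all others, with a log2 fold change of −0.75 ± 0.09 (SE; adjusted p = 0.0170 by edgeR) in HU against DMSO. TOP2A had 155, 116 and 162 CPM in HU, 251, 316 and 281 CPM in Thy-Noc, and 306, 276 and 301 CPM in DMSO, with a log2 fold change of −1.03 ± 0.15 (SE; adjusted p = 0.0224 by edgeR) in HU against DMSO. In HU against Thy-Noc the same 2 of the 29 fell, against 1.06% of all tested genes, and none rose, against 0.696%. NSMCE4A fell by 0.77 and TOP2A by 0.97 on the log2 scale, with adjusted p of 0.0200 and 0.0368 by edgeR. DESeq2 called 5 of the 29 there, against 16.1%. The 2 calls in HU against DMSO were each lost without HU replicate 1, HU replicate 3 or any 1 DMSO library (adjusted p 0.0559 to 0.0655 for NSMCE4A and 0.0641 to 0.0840 for TOP2A). Both were also lost in a fit of only the HU and DMSO libraries, with adjusted p of 0.0638 for NSMCE4A and 0.0641 for TOP2A. In HU against Thy-Noc the call on NSMCE4A held without HU replicate 2 or DMSO replicate 2 and that on TOP2A without HU replicate 2, and both were lost without any 1 of the others (adjusted p 0.0508 to 0.0860 for NSMCE4A and 0.0671 to 0.121 for TOP2A). They were lost too in a fit of only the HU and Thy-Noc libraries (0.109 for NSMCE4A and 0.133 for TOP2A), and that on TOP2A without the filter (0.0558) and with total-count scaling (0.0670).

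In Thy-Noc against DMSO 0 of the 29 passed edgeR's adjusted test, against 0.0353% of all tested genes, and DESeq2 and limma called 0. An unadjusted p under 0.05 by edgeR was found for 1 of the 29, against 4.49% of all tested genes. That gene, to which DESeq2 gave no adjusted p, was CDCA5, which encodes sororin, the protein that protects cohesin from release. CDCA5 had 273, 254 and 340 CPM in HU, 249, 0.947 and 0.280 CPM in Thy-Noc, and 0.456, 0.224 and 0.318 CPM in DMSO. All 3 HU libraries and Thy-Noc replicate 1 were between 249 and 340 CPM, and the other 5 were below 1 CPM. Its log2 fold change in HU against DMSO was 9.76 ± 2.74 (SE; adjusted p = 0.103 by edgeR), not past the threshold, and the call was gained without Thy-Noc replicate 1 (9.77, adjusted p = 0.00880) and in a fit of only the HU and DMSO libraries (adjusted p = 0.00514). In HU against Thy-Noc the log2 fold change of CDCA5 was 1.79 (adjusted p = 0.702 by edgeR), and 8.89 with adjusted p = 0.0241 without Thy-Noc replicate 1. In Thy-Noc against DMSO it was 7.97, and 0.88 without that library.

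Among condensin II genes, which encode subunits that stay in the nucleus through interphase, 0 of 3 were called by edgeR in HU against DMSO. Unadjusted p was under 0.05 for 1 of the 3, against 21.2% of all tested genes, and DESeq2 also called 1, against 18.8%. That gene was NCAPD3, at −0.36 ± 0.13 (SE; adjusted p = 0.177 by edgeR and 0.0476 by DESeq2). NCAPD3 had 126, 130.5 and 168.5 CPM in HU, 166, 192 and 182 CPM in Thy-Noc, and 170.4, 182 and 193 CPM in DMSO. NCAPG2 had the largest change of that list in Thy-Noc against DMSO, at −0.39, with Thy-Noc replicate 2 at 15.0 CPM, and 0.09 without that library. Among the loading and release genes, the largest was that of CTCF, the zinc-finger protein that halts cohesin, at 2.69 ± 1.71 in HU against DMSO, with 7.42, 0.687 and 108 CPM in HU and 6.09, 0.476 and 11.3 CPM in DMSO. HU replicate 3 was far above the other 8 libraries for CTCF, and without it the log2 fold change was −0.55. Of the 6 genes of that list edgeR called 0 in HU against DMSO. Unadjusted p was under 0.05 for 3 of the 6 and DESeq2 also called 3, against the same 21.2% and 18.8% of all tested genes. These 3, named after their values were seen, were MAU2, which loads cohesin with NIPBL, and PDS5A and PDS5B, which bind cohesin and take part in its release. MAU2 had 138, 150.3 and 142 CPM in HU, 136, 111 and 112 CPM in Thy-Noc, and 109, 105 and 116.5 CPM in DMSO. PDS5A had 177.5, 169.9 and 193 CPM in HU, 227.5, 208 and 216 CPM in Thy-Noc, and 225, 251 and 229.9 CPM in DMSO. Every HU library was above every DMSO library for MAU2, as for 15.5% of all tested genes. For PDS5A and PDS5B every HU library was below every DMSO library, as for 15.3%. Adjusted p in HU against DMSO was 0.0982 by edgeR and 0.00298 by DESeq2 for MAU2 (log2 fold change 0.39 ± 0.11, SE). It was 0.0564 by edgeR, 3.475e-05 by DESeq2 and 0.0425 by limma for PDS5A (−0.39 ± 0.09, SE), and 0.191 by edgeR and 0.00321 by DESeq2 for PDS5B (−0.25 ± 0.10, SE). In other lists DESeq2 also called PTTG1 (log2 fold change −0.76 by edgeR, adjusted p = 0.0297 by DESeq2), NSMCE1 (−0.55, 0.0344) and NSMCE3 (0.31, 0.00235) in HU against DMSO. By edgeR none of these was called (adjusted p 0.131, 0.149 and 0.248). Of the acetylation genes, HDAC8, the SMC3 deacetylase, led in HU against DMSO (0.42 ± 1.42, and −1.10 without HU replicate 1), ESCO1 in Thy-Noc against DMSO (0.25 ± 0.28) and ESCO2 in HU against Thy-Noc (0.53 ± 0.20). STAG3, a germline subunit, led its list at 1.05 ± 0.54 in HU against DMSO, NSMCE2 had 4.51 ± 1.96 in Thy-Noc against DMSO, and MCPH1 had 0.34 ± 0.26 in the same comparison (all log2 fold changes ± SE, none called). NSMCE2 was unsteady, with 26.5, 9.89 and 0.497 CPM in Thy-Noc and 0.583, 0.196 and 0.839 CPM in DMSO, so Thy-Noc replicate 3 lay among the DMSO libraries.

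**Figure D5:**
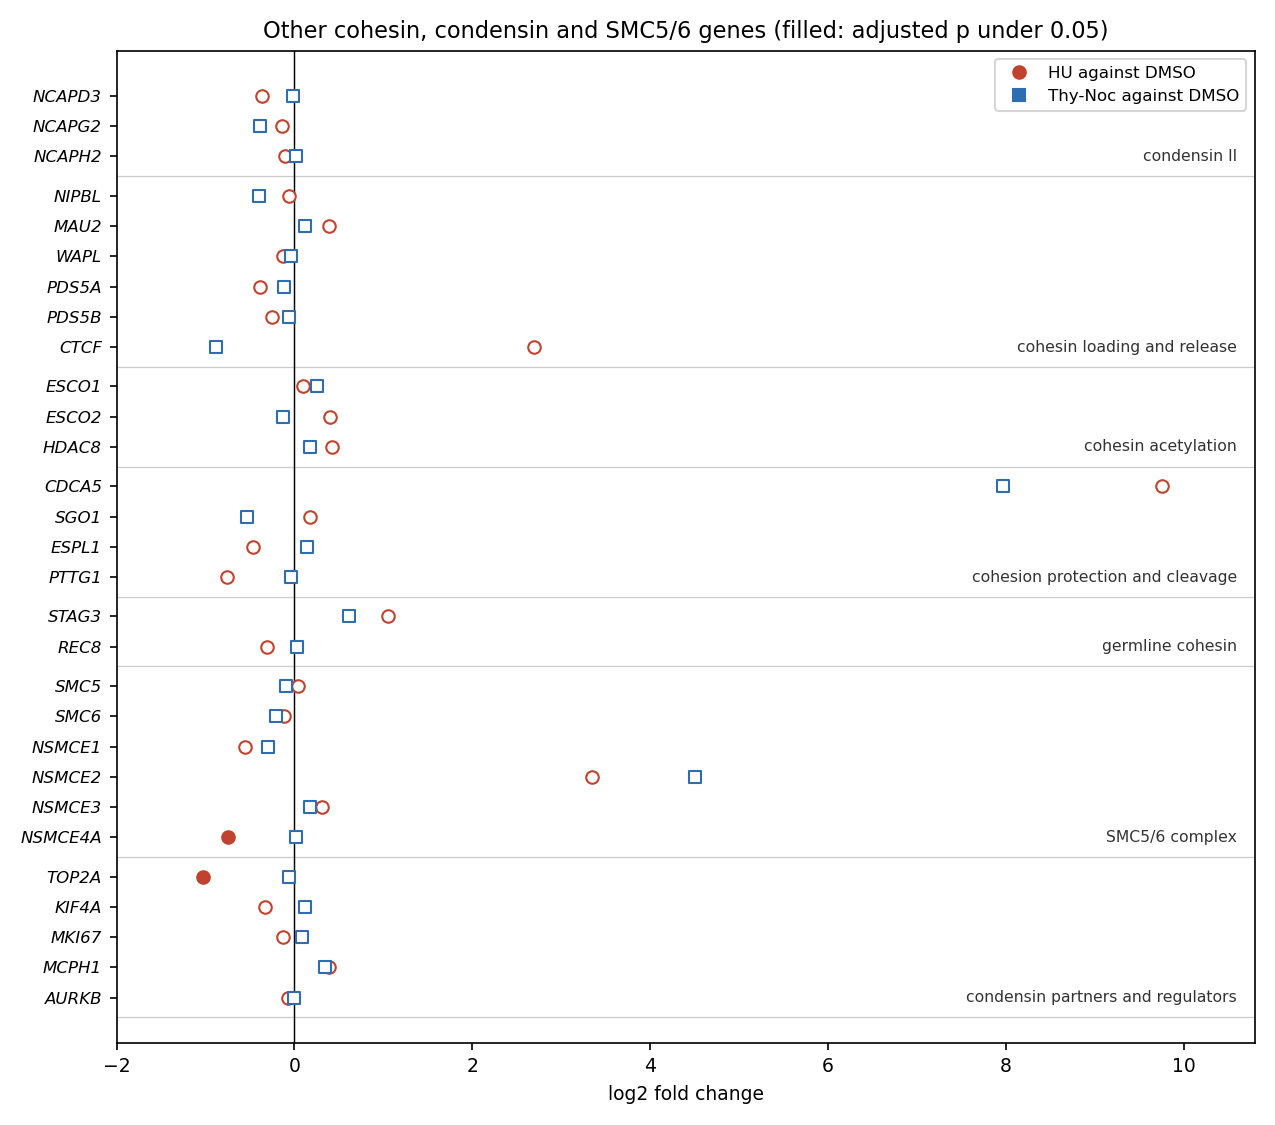
Log2 fold changes of 29 further genes by list: subunits of cohesin, condensin and SMC5/6, and their partners and regulators. Circles show HU against DMSO and squares Thy-Noc against DMSO, filled where adjusted p was under 0.05 by edgeR. NSMCE4A and TOP2A are filled in HU against DMSO, and CDCA5 lies furthest to the right in both.

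Across the 9 libraries, the gene most like each steady member was found by Pearson's r of log2(CPM + 0.5), as a description. All libraries and their group differences contribute to r. Each partner is the gene with the highest r among all tested genes with a mean of at least 5 CPM. No baseline for the best of so many genes over 9 libraries was computed, so a high r alone does not show co-expression. TUBGCP3 was most like NCAPH (r = 0.987), TEDC1 most like NCAPG (0.987), KIAA0040 most like SMC3 (0.984), HMGN2P5 most like RAD21 (0.978) and ANKS1A most like STAG1 (0.972). RETSAT was most like STAG2 (0.936) and ENSG00000279605 most like SMC1A (0.934). SMC2 and NCAPD2 were left out as unsteady and SMC4 as below a mean of 5 CPM.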

How the data were processed

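The 9 Raji libraries were made with a stranded mRNA kit (per the labels' protocols). Tools listed in the submitters' processing notes are FastQC, STAR, Trim Galore and DESeq2, with the build GRCh38. The counter, its annotation and its use of strand remain not given in the sources used here. In the single table that the authors deposited, named as CPM, values are whole and their totals differ between libraries, so they were read as estimated counts per gene that the authors deposited without scaling to a common depth, already whole numbers; no value is 0, and 274 genes stand at 1 in all 9 libraries. The test planned for CPM was therefore replaced by the count test. Gene names came from a table that matched 15393 of 15436 identifiers, and coordinates and exon lengths from GENCODE release 29.

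With edgeR 4.0.16 (R 4.3.3), genes with at least 1 CPM in at least 3 libraries were kept, libraries were scaled by TMM, and a quasi-likelihood model of the 3 groups was fitted to all 9 libraries (6 residual degrees of freedom). Each pair of groups was tested on both sides, with Benjamini-Hochberg adjustment and a threshold of 0.05. CPM in the text uses TMM-scaled sizes. Same-group libraries differed from each other by a chi-square per degree of freedom of 930.4 to 1230, so none repeated another. Steps were tested on simulated counts, which were given a small replicate spread and no unsteady genes. That test therefore does not show how the calls fare at the spread seen here. Alternatives were DESeq2 1.42.0, limma 3.58.1 with a pseudocount of 0.1 or 1 CPM, other filters, median-of-ratios scaling, a block on replicate number, only the 6 libraries compared, no intensity trend and leaving out each library; a pseudocount of 0.5 CPM and total-count scaling were added after the data were seen. Named genes were the 10 members, related genes that passed, and otherwise the largest change per list. The members and lists were chosen with earlier results of these data known. Overlapping and antisense genes and genes with pseudogenes are uncertain.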

Additional observations from a re-analysis of the deposited data

How the results depend on the processing

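The direction of NCAPH and RAD21 in both HU comparisons stayed negative in all 20 alternatives. By alternative, HU against DMSO called 2 subunit genes and 2 related genes of 404 genes in all. Without a filter it called 1 subunit gene of 220, by DESeq2 4 subunit and 9 related of 2135, without the Thy-Noc libraries 0 subunit and 1 related (CDCA5, neither of the 2 above) of 51, without an intensity trend 1 subunit and with total-count scaling 1 subunit. In HU against Thy-Noc, 2 subunit and 2 related genes of 199 were called. This became 0 subunit and 1 related of 64 without a filter, 313 genes at a minimum of 5 CPM, 4 subunit and 5 related of 1826 by DESeq2, 0 subunit and 0 related of 18 without the DMSO libraries, 1 subunit of 132 without an intensity trend, and 0 subunit and 1 related with total-count scaling. Limma called 311, 326 and 346 genes with pseudocounts of 0.1, 0.5 and 1 CPM there, and 7, 12 and 12 of Thy-Noc against DMSO, where edgeR called 4 and DESeq2 179. With total-count scaling the median of all genes moved by 0.102 in HU against DMSO and 0.146 in HU against Thy-Noc, and the higher share of calls was 72.7% (56.2% with TMM) and 70.7% (39.7% with TMM). In HU against Thy-Noc without an intensity trend that share was 51.5%. The cause of these differences was not tested.

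Leaving out 1 library gave 21 to 318 genes, 0 to 2 subunit genes and 0 to 3 related genes in HU against DMSO. It gave 5 to 13 genes, 0 subunit and 0 related in Thy-Noc against DMSO, and 1 to 103 genes, 0 to 1 subunit and 0 to 2 related in HU against Thy-Noc.

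Libraries with the same replicate number did not visibly deviate together (correlation −0.035 to 0.040 over 9 pairs). The sources used here do not say whether the numbers pair the samples. The check cannot exclude it, since a shared effect smaller than the replicate spread would not be seen. With the number as a replicate block, HU against DMSO called 9 genes, 0 subunit and 0 related, Thy-Noc against DMSO 0 genes, and HU against Thy-Noc 0 genes, 0 subunit and 0 related. With 3 libraries a group, replicate spread limits precision, and its weight against that of depth was not measured.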
